A study of Mus musculus with 11 samples.

Results

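The let-7 miRNAs are cut from short hairpins whose 5p arm is the guide strand and whose 3p arm is usually discarded. Embryonic stem cells transcribe let-7 genes, but the RNA-binding protein Lin28 blocks their processing until the cells differentiate. Trim71, the mammalian form of the worm protein lin-41, is a classic target of let-7 and a stem cell protein in its own right. The mature 3p arms differ more between genes than the 5p arms do, so most of them point to a single gene of the family.

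Small RNA libraries were compared from mouse embryonic stem (mES) cells of the strain C57BL/6, male, with and without functional Trim71. The group labelled Trimfl/fl held conditional Trim71 alleles and Rosa26-CreERT2, a Cre recombinase that acts after addition of 4-hydroxytamoxifen (4-OHT). The group labelled Trim-/- came from those cells after 2 days in 500 nM 4-OHT by the labels, which removes exon 4, and at least 7 further days in culture. The study's methods give a lower dose, a shorter culture, and DMSO as the vehicle for the Trimfl/fl cells. All cells were kept in FCS and LIF and enriched for the stem cell antigen SSEA-1 before RNA was taken. There were 5 Trim-/- and 6 Trimfl/fl libraries from 2 clones: clone 1 on days 1, 5 and 6, and clone E3 on days 3 and 4, with Trimfl/fl alone on day 2. The labels do not say that days were separate deletions of Trim71, so the p-values measure the spread between these samples.

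The 3p arms were taken as every row whose name begins with mmu-let-7 or mmu-miR-98 and ends in -3p, which gave 9 of the 592 miRNAs listed. They were mmu-let-7a-1-3p, mmu-let-7c-2-3p, mmu-let-7d-3p, mmu-let-7e-3p, mmu-let-7f-1-3p, mmu-let-7f-2-3p, mmu-let-7g-3p, mmu-let-7i-3p and mmu-miR-98-3p. The other 10 of the 19 family rows were 9 5p arms and let-7j, which has no arm in its name.

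All 9 matched a mature miRNA of RefSeq on GRCm38.p6. The mature sequences are shown because they decide which rows can be told apart. Capitals mark the seed, bases 2 to 8 from the 5′ end, which pairs with targets.
let-7a-1-3p: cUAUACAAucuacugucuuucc
let-7c-2-3p: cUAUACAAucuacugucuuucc
let-7f-1-3p: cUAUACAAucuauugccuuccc
miR-98-3p: cUAUACAAcuuacuacuuuccu
let-7f-2-3p: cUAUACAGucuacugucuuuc
let-7d-3p: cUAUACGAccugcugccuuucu
let-7e-3p: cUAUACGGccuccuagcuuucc
let-7i-3p: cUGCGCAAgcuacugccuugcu
let-7g-3p: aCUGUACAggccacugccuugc

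The first 4 of these share the seed UAUACAA, and each of the other 5 has a seed of its own. All are 22 bases long except let-7f-2-3p with 21. Counted from the 5′ end and read from let-7a-1-3p to the other arm, let-7f-2-3p carries the single substitution A8G over its 21 bases, which lies in the seed. The arm of let-7f-1 differs at 3 positions outside the seed, C13U, U16C and U20C. The arm of let-7g starts 1 base earlier: read from its base 2, it matches let-7a-1-3p at 15 of 21 bases, and the shift gives it another seed. The 5p arms are far more alike: the 9 of them share the seed GAGGUAG.

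The arms of let-7a-1 and let-7c-2 have the same 22 bases, although their genes lie on chromosomes 13 and 15. Their hairpins are shown to mark how far the identity runs, with the 3p arm in capitals.
Mirlet7a-1: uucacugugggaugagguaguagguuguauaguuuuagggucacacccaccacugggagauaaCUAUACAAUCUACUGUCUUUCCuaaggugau
Mirlet7c-2: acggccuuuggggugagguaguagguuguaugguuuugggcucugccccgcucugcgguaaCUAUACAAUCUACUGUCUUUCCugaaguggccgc
The identical run covers 3 bases before the arm, the arm and 1 base after it, 26 bases in all. A read within that run fits both genes equally well, and Bowtie2 with default settings, as the study's methods give it, reports 1 place for such a read, picked at random among equals. How reads that fit both genes were treated when rows were counted is not given in the sources used here. The rows of let-7a-1-3p and let-7c-2-3p are therefore uncertain as to their gene, and they are given here both singly and as a sum.

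By position on GRCm38, the minus strand of chromosome 13 holds 3 of the hairpins: Mirlet7d (chr13:48536012-48536114), Mirlet7f-1 (chr13:48537829-48537917) and Mirlet7a-1 (chr13:48538179-48538272). They lie 1715 and 262 bases apart and overlap exons of the noncoding RNA 6720427I07Rik in GENCODE M21. On the plus strand of chromosome X, Mirlet7f-2 (chrX:151912346-151912428) and Mir98 (chrX:151913214-151913321) lie 786 bases apart in an intron of Huwe1, a ubiquitin ligase gene. Mirlet7c-2 (chr15:85706603-85706697, plus strand) overlaps an exon of the noncoding RNA Lncppara. Mirlet7e (chr17:17830352-17830444, plus strand) lies in an intron of Spaca6. Mirlet7g (chr9:106178840-106178927, plus strand) lies in an intron of Wdr82. Mirlet7i (chr10:122985640-122985724, minus strand) overlaps an exon of the pseudogene transcript D630033A02Rik.

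The values have to be read with their processing in mind. They are read counts normalised and corrected for batch by the authors, with values under 1 set to 1, here called the floor. In 591 of the 592 miRNAs the Trim-/- and Trimfl/fl values of a day add up to the same sum on each day, within 0.1%, where neither is at the floor. Each value is thus the overall mean of that miRNA plus or minus an equal share of the same-day difference, and a value in 1 library carries no information beyond that difference. A floored value can be recovered as the sum minus its partner. Once floored values were replaced by recovered ones, the Trimfl/fl library of day 2 was the mean of the remaining 5 in all 592 miRNAs, and it was left out. The summed values per library ran from 3751519 to 5551715 in Trim-/- and from 2742673 to 4332525 in Trimfl/fl; they are sums of normalised values, and the sequencing depth is unknown. On day 5 the Trim-/- sum was 2.02 times the Trimfl/fl sum, against 0.866 to 1.16 times on the other days. The miRNAs that mark mES cells, 23 rows of miR-290a to miR-295, miR-302a to miR-302d and miR-367, made up 54.2% to 58.5% of the sum in the 10 paired libraries. Loss of Trim71 itself cannot be read from a miRNA table.

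In level, 3p arms were scarce. The overall mean, which is the same-day sum shared out over both libraries, was 160.0 normalised read counts for let-7c-2-3p and 147 for let-7a-1-3p. It was 72.3 for let-7d-3p, 35.5 for let-7f-2-3p, 19.8 for miR-98-3p, 17.4 for let-7e-3p and 13.6 for let-7f-1-3p. It was lowest for let-7g-3p at 8.67 and let-7i-3p at 8.65. Because same-day values mirror each other around this mean, the spread between libraries holds no error of the level, and which neighbours in this order differ was not tested.

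Set against its 5p arm, the 3p arm took very different shares by locus. For let-7d the 5p arm was listed at 10.8 times the 3p arm, for miR-98 at 26.1 times and for let-7e at 37.4 times. For let-7i it was 690 times and for let-7g 1415 times. The 5p rows of let-7a, let-7c and let-7f each stand for more than 1 gene. With that limit, let-7c-5p was 4.46 times let-7c-2-3p, let-7a-5p was 19.1 times let-7a-1-3p, and let-7f-5p was 200 times the sum of the let-7f-1 and let-7f-2 3p arms. As shares of both arms, the 3p arm thus held from 0.0706% at let-7g to 18.3% at let-7c.

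Before the floor, the mean same-day difference between Trim-/- and Trimfl/fl cells had a median of 0.82 times the overall mean over the 9 arms, and of 0.25 times without day 6. On the log2 scale the fitted changes ran from 0.26 for let-7d-3p to 1.90 for let-7f-2-3p, with a median of 1.40. In 8 of the arms the log2 values include a day 6 pair whose Trimfl/fl value is the floor, so their size depends on the floor and on the value added before the logarithm: the median was 0.757 with 10 in place of 1. Over all 592 miRNAs the median was 0.03, and 303 had a higher mean. The sign of the 9 arms is a description and not support, because the authors kept a miRNA if the larger group mean reached 10. As listed, 6 of the 9 arms reached that minimum in both groups. The arms of let-7f-1, let-7g and let-7i reached it in Trim-/- alone, and before the floor miR-98-3p did too. For these arms the fit is a description, and the counts below that include them are no test of them. None of the 9 arms reached the study's thresholds, which ask for more than a 1.5-fold change with an unadjusted p under 0.05, in the limma fit on 5 pairs. Upwards, those thresholds were passed by 5 of the 592 miRNAs (0.845%). An unadjusted p under 0.05 in either direction was reached by 0 of the 9 arms and by 32 miRNAs in all (5.41%). With Benjamini-Hochberg adjustment, an adjusted p under 0.05 from limma was reached by 0 of the 592 miRNAs (0%), and the 9 arms lay between 0.607 and 0.721. Without the pair of day 6, the log2 fold changes of 8 of the 9 arms were smaller and the median was 0.38; let-7d-3p was the exception.

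**Figure D1:**
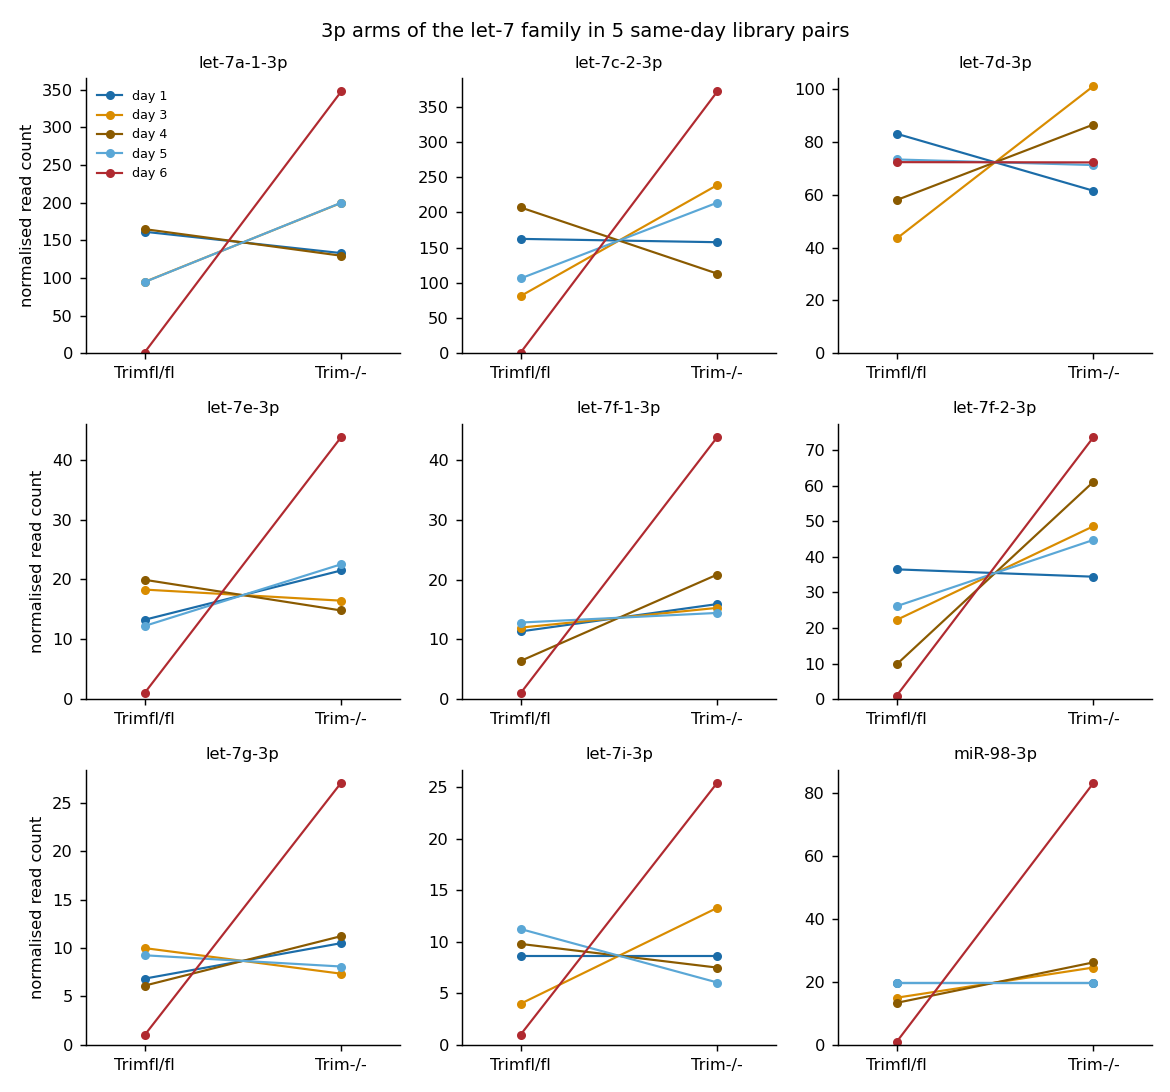
Normalised read count of each 3p arm (y axis, linear, separate scale per panel) in the Trimfl/fl and Trim-/- libraries (x axis), 1 line per same-day pair. Lines without a floored value cross at the overall mean because the same-day sum is constant, and in 8 panels the day 6 line is the steepest and ends at the floor of 1 in Trimfl/fl, while in let-7d-3p it is flat.

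In the chromosome 13 cluster, the 3 neighbouring hairpins differed in the days on which the 3p arm was higher. Between let-7a-1-3p and let-7f-1-3p the same-day differences had a Pearson r of 0.85 over 5 days and -0.73 without day 6. Those of let-7d-3p had an r of -0.07 with let-7a-1-3p (0.38 without day 6) and -0.18 with let-7f-1-3p (0.21 without day 6). For let-7a-1-3p, the Trim-/- values on days 1, 3, 4, 5 and 6 were 133.1, 199.7, 129.6, 199.9 and 348. The Trimfl/fl values of those days were 161, 94.8, 165, 94.5 and the floor of 1. The arm was higher in Trim-/- on days 3, 5 and 6 and lower on days 1 and 4, so the groups overlapped. Its mean was 202 ± 88.3 (SD, n = 5) in Trim-/- and 103 ± 66.7 (SD, n = 5) in Trimfl/fl. The limma fit gave a log2 fold change of 1.79 (SE 1.196, adjusted p = 0.645), which was 0.38 without day 6. Before the floor, the mean same-day difference was 109 normalised read counts (standard error 79.0, n = 5, exact permutation within days p = 0.25, two-sided). With 5 pairs, this permutation test cannot give a p under 0.0625.

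The neighbour let-7f-1-3p was the single 3p arm higher in Trim-/- on every one of the 5 days. With means of 22.1 ± 12.4 in Trim-/- and 8.70 ± 4.98 in Trimfl/fl (SD, n = 5 each), it was one of the arms listed only through the group in which it is high. Its Trim-/- values on days 1, 3, 4, 5 and 6 were 15.9, 15.3, 20.9, 14.4 and 43.9. In Trimfl/fl they were 11.3, 11.97, 6.39, 12.8 and the floor of 1. Every Trim-/- library thus stood above every Trimfl/fl library, which with constant sums is the same property as being higher on all days. It was shared by 31 of the 592 miRNAs (5.24% higher on all 5 days, and 5.24% without overlap), so that 1 of 9 arms is read against that share. In limma, its log2 fold change was 1.40 (SE 0.69), and without day 6 it was 0.63. Before the floor, with a Trimfl/fl mean of 5.18, the mean difference was 16.9 normalised read counts. No p-value is given for either, since the arm was listed through the group in which it is high. On day 5 the difference was 1.61 normalised read counts, 0.16 on the log2 scale. After division of each library by its total it was -0.79, where the median of the whole table on that day was -1.002.

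The third hairpin of the cluster, let-7d, had the one 3p arm without a difference on day 6. Its Trim-/- values on days 1, 3, 4, 5 and 6 were 61.5, 101.1, 86.6, 71.2 and 72.2. In Trimfl/fl they were 83.1, 43.4, 58.0, 73.3 and 72.3. The arm was higher in Trim-/- on days 3 and 4, both of clone E3, and lower on days 1, 5 and 6, all of clone 1. On day 6 the difference was -0.10 normalised read counts, that is -0.14% of the mean. With limma the log2 fold change came to 0.26 (SE 0.32, adjusted p = 0.721), and the means were 78.5 ± 15.5 and 66.0 ± 15.5 (SD, n = 5 each). Its partner let-7d-5p had a day 6 difference of 3448 normalised read counts, 4.42 times its mean. The hairpin is shown with both arms in capitals, since the 2 rows come from opposite sides of 1 precursor.
Mirlet7d: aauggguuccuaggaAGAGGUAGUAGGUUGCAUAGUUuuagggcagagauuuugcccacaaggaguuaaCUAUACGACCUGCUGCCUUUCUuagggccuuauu

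On chromosome 15, let-7c-2-3p followed the row of let-7a-1-3p, whose sequence it shares. Its Trim-/- values on days 1, 3, 4, 5 and 6 were 158, 239, 113, 213.8 and 372. In Trimfl/fl they were 162, 81.3, 207, 106 and the floor of 1. As for let-7a-1-3p, Trim-/- was higher on days 3, 5 and 6 and lower on days 1 and 4, and the groups overlapped. Over the 5 days the same-day differences of both rows had a Pearson r of 0.98, given as a description of rows that share libraries and possibly reads. Its log2 fold change in limma was 1.84 with an SE of 1.23 (adjusted p = 0.645), or 0.41 without day 6.

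The sum of let-7a-1-3p and let-7c-2-3p is unaffected by a split of shared reads between their genes, but not by a read counted in both rows. Its same-day differences were -33.1, 262, -129, 213 and 824 normalised read counts on days 1, 3, 4, 5 and 6. Clone E3 thus gave opposite signs on its 2 days, 3 and 4. The mean difference was 227 (standard error 166, n = 5, exact permutation p = 0.25), and 78.3 (standard error 94.7) without day 6. The row of let-7a-1-3p held 45.5% to 53.4% of the sum in the Trim-/- libraries and 44.3% to 53.8% in the Trimfl/fl libraries.

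On chromosome X, let-7f-2-3p had the largest fitted log2 fold change of the 9 arms over the 5 pairs, a rank that went to let-7c-2-3p without day 4, in clone 1 alone or with 10 added before the logarithm, and to miR-98-3p on untransformed values before the floor. Its Trim-/- values on days 1, 3, 4, 5 and 6 were 34.4, 48.6, 61.1, 44.8 and 73.7. In Trimfl/fl they were 36.5, 22.3, 9.80, 26.2 and the floor of 1. It was higher in Trim-/- on 4 of 5 days and differed by -2.07 normalised read counts on day 1, the day whose values make the groups overlap. The means were 52.5 ± 15.2 and 19.1 ± 13.9 (SD, n = 5 each). Limma gave a log2 fold change of 1.90 (SE 0.79), with an unadjusted p of 0.0518 and an adjusted p of 0.607. It was 1.07 without day 6, with an unadjusted p of 0.0798 from limma. The exact permutation within days gave p = 0.125.

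The next hairpin in that intron, miR-98, had the largest day 6 difference of its 3p arm relative to the mean among all 592 miRNAs. Its Trim-/- values on days 1, 3, 4, 5 and 6 were 19.8, 24.6, 26.2, 19.8 and 83.1. In Trimfl/fl they were 19.8, 14.98, 13.4, 19.8 and the floor of 1. On days 1 and 5 the paired values were equal to every digit given, so those libraries show only the overall mean. Equal pairs were found 5 times in the whole table, and 3 of these were miR-98-3p on days 1 and 5 and let-7i-3p on day 1. The day 6 difference was 127 normalised read counts, 6.41 times the overall mean. Over the 5 pairs, limma gave a log2 fold change of 1.40 (SE 0.85), and over the 4 others 0.40. No p-value is given for miR-98-3p. Before the floor its means were 34.7 in Trim-/- and 4.86 in Trimfl/fl, so it was listed through Trim-/- alone.

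The arms of let-7e, let-7g and let-7i were near the lower end of the table. For let-7e-3p, Trim-/- values ran from 14.8 to 43.8 with a median of 21.5 on day 1, and Trimfl/fl values from the floor of 1 to 19.95. It was higher in Trim-/- on days 1, 5 and 6, all of clone 1, and lower on days 3 and 4, both of clone E3. A log2 fold change of 1.09 (SE 0.75, adjusted p = 0.645) was fitted by limma, and one of 0.23 without day 6. This is the clone order opposite to that of let-7d-3p. The fitted difference between the clones, E3 minus 1, was -2.27 for let-7e-3p (adjusted p = 0.644 from limma) and 1.04 for let-7d-3p (adjusted p = 0.627 from limma).

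For let-7g-3p, the Trim-/- values on days 1, 3, 4, 5 and 6 were 10.5, 7.35, 11.2, 8.09 and 27.1. The Trimfl/fl values were 6.84, 9.99, 6.11, 9.25 and the floor of 1. The groups overlapped, with Trim-/- higher on days 1, 4 and 6, and limma fitted a log2 fold change of 0.92 (SE 0.65). For let-7i-3p, the Trim-/- values of those days were 8.65, 13.3, 7.50, 6.05 and 25.4. The Trimfl/fl values were 8.65, 4.00, 9.80, 11.2 and the floor of 1. Trim-/- was higher on days 3 and 6 alone, and limma fitted a log2 fold change of 0.82 (SE 0.70). No p-value is given for let-7g-3p or let-7i-3p, since each was listed only through the group in which it is high. Without day 6 the log2 fold changes were 0.19 for let-7g-3p and 0.09 for let-7i-3p.

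**Figure D2:**
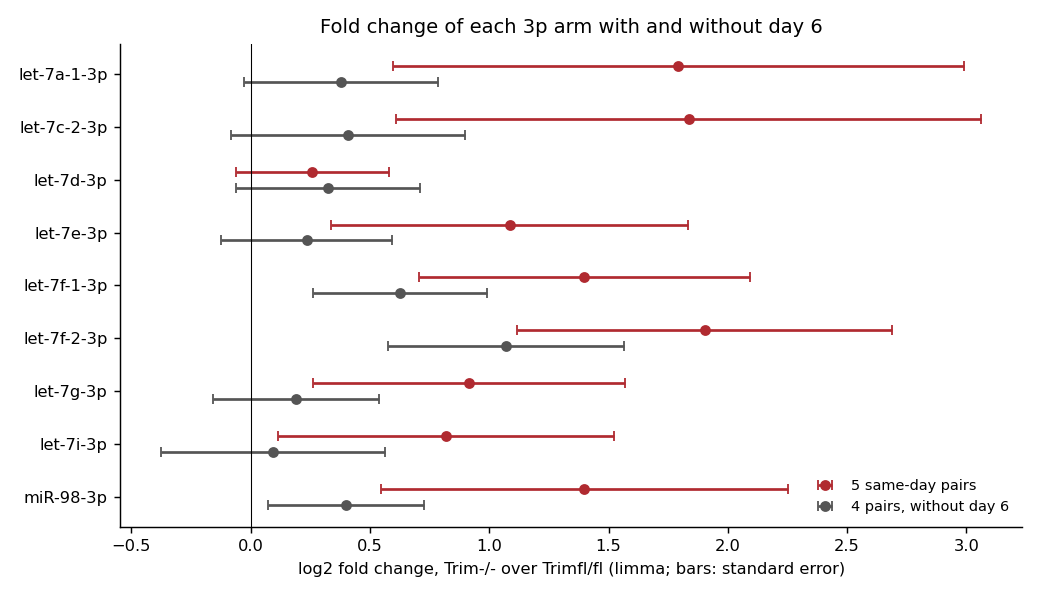
Log2 fold change of each 3p arm, Trim-/- over Trimfl/fl, from limma on log2(value + 1) (x axis; bars are 1 standard error) for all 5 pairs and for the 4 pairs without day 6. With 5 pairs the values lie between 0.26 and 1.90, and without day 6 between 0.09 and 1.07; let-7d-3p is the arm that does not fall.

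Read day by day, the 3p arms were higher in Trim-/- in 28 of 45 same-day comparisons, lower in 14 and equal in 3. Over all miRNAs, 49.7% of such comparisons were higher. Taking days 1, 3, 4, 5 and 6 in turn, 3, 7, 5, 5 and 8 of the 9 arms were higher. The median difference in multiples of the overall mean was 0, 0.71, 0.40, 0.12 and 3.04 on these days. Medians of all 592 miRNAs lay between -0.01 and 0.02 on the 5 days. Without day 6, 20 of 36 comparisons of 3p arms were higher and 13 lower, against 32 higher and 4 lower for the 5p arms. Division of each library by its total shifts every miRNA of a pair alike; it gave 16 of 36 higher for the 3p arms and 21 of 36 for the 5p arms, and 40.5% higher over the whole table. Whether the arms differ in this was not tested, since the rows share libraries.

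After division of each library by its total, 3, 7, 5, 1 and 8 of the 9 arms were higher in Trim-/- on days 1, 3, 4, 5 and 6. On day 5, when the totals differed most, this scaling put the median of the 592 miRNAs at -1.002 and that of the 3p arms at -0.79 on the log2 scale, so that the lower count goes with a shift of the table as a whole. In the limma fit, that scaling set the median over the whole table at -0.24 on the log2 scale, and the 3p arms, with a median of 1.15, lay 1.39 above it. Without that scaling the distance was 1.37. Both distances include arms listed only through Trim-/- and the day 6 pair, floored in most arms, so they are descriptions.

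On day 6, the difference exceeded 2 times the overall mean in 8 of the 9 3p arms, from 2.16 in let-7f-2-3p to 6.41 in miR-98-3p. Of these 8, the arms of let-7f-1, let-7g, let-7i and, before the floor, miR-98 were listed only through the Trim-/- mean, which their day 6 value raises, so the count is a description. Such a difference was found in 23 of the 592 miRNAs (3.89%), of which 16 were let-7 or miR-98 rows, and in 7 of 573 miRNAs outside the family. The Trimfl/fl value of day 6 was at the floor in 8 of the 9 arms and in 24 miRNAs (4.05%). Recovered from their partners, the floored Trimfl/fl values were between -53.2 for let-7a-1-3p and -2.76 for let-7f-2-3p. A value below 0 is not a read count, so no fold change can be given for this day. The differences, which are unaffected by removing 1 term from both libraries, were 401 normalised read counts for let-7a-1-3p, 423 for let-7c-2-3p, 76.5 for let-7f-2-3p, 60.5 for let-7f-1-3p and 52.9 for let-7e-3p. They were 36.8 for let-7g-3p and 33.6 for let-7i-3p.

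**Figure D3:**
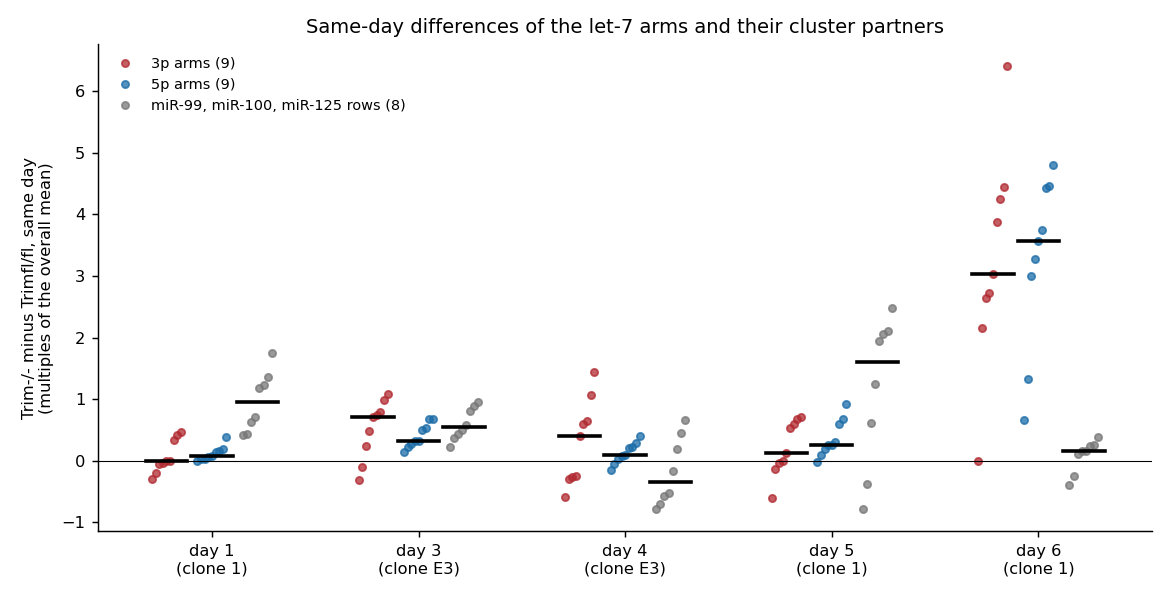
Same-day difference, Trim-/- minus Trimfl/fl, in multiples of each miRNA's overall mean (y axis) by day and clone (x axis) for the 9 3p arms, the 9 5p arms and the 8 rows of miR-99, miR-100 and miR-125; points are miRNAs and black bars medians. On day 6 the medians are 3.04 for the 3p arms, 3.58 for the 5p arms and 0.16 for the cluster partners, and the 3p point at 0 is let-7d-3p.

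The 5p arms shared the day 6 difference, with let-7c-5p and let-7e-5p lower than the rest. In 7 of 9 5p arms it exceeded 2 times the mean, and it was 0.67 times in let-7c-5p and 1.33 times in let-7e-5p. In both of these pairs the 3p arm had the larger relative difference, 2.64 times for let-7c-2-3p and 3.04 times for let-7e-3p. The let-7c pair is not a single locus. Its 5p row stands for both Mirlet7c-1 and Mirlet7c-2, and let-7c-2-3p shares its sequence with let-7a-1-3p. At let-7d the order was the opposite, with 4.42 times for the 5p arm and a difference near 0 for the 3p arm. At let-7g the values were 4.24 for the 3p arm and 3.58 for the 5p arm, at let-7i 3.88 and 4.80, at miR-98 6.41 and 4.47, and at let-7a 2.72 and 2.99. For let-7f the 3p arms together gave 2.79 and the 5p arm 3.75.

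**Figure D4:**
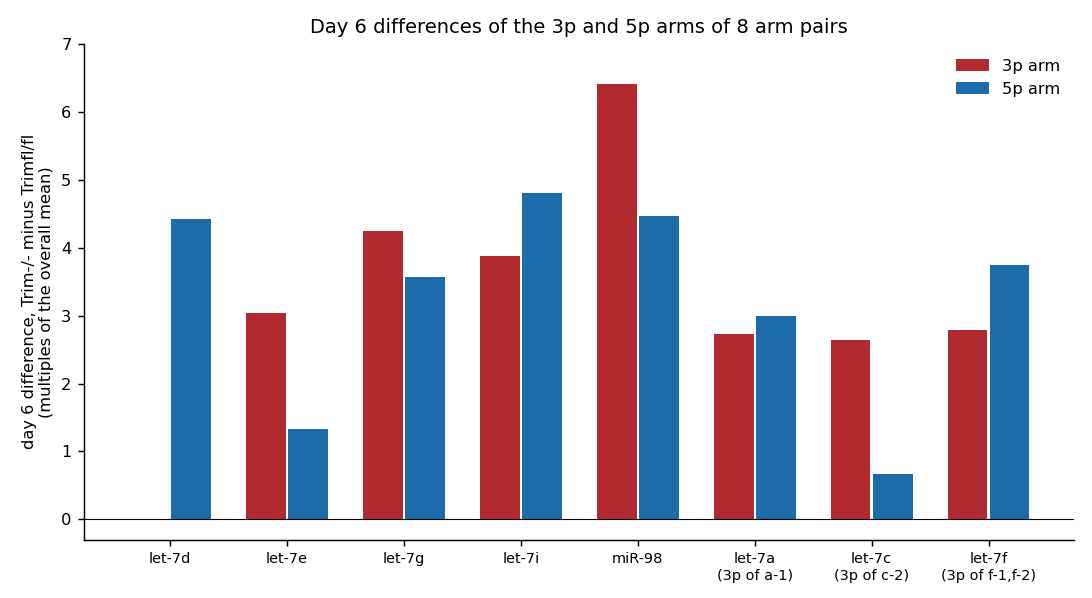
Day 6 difference, Trim-/- minus Trimfl/fl, in multiples of the overall mean (y axis) for the 3p and the 5p arm of 8 arm pairs (x axis); 1 library pair, no error. The bars of let-7d (near 0 and 4.42), let-7e (3.04 and 1.33) and let-7c (2.64 and 0.67) differ between the arms, as do those of miR-98 (6.41 and 4.47). The 5p rows of let-7a, let-7c and let-7f each stand for more than 1 gene.

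Over the 5 days, the ratio of the 3p to the 5p arm was compared between the genotypes in 8 arm pairs. With 5 days the exact permutation cannot give a p under 0.0625. It could thus not reach the study's p threshold in any pair, and no absence of a difference is concluded. For let-7g, let-7i, let-7f (through let-7f-1-3p) and, before the floor, miR-98, a 3p arm was listed only through Trim-/-. The values of these pairs are descriptions. The log2 ratio of day 6 is set by the floor wherever an arm is floored, so the comparison is given on the untransformed scale before the floor, as the relative difference of the 3p arm minus that of the 5p arm. The gap was -0.84 for let-7d (standard error 0.90, exact permutation within days p = 0.5625), and 0.06 without day 6. For miR-98 it was 0.48 (standard error 0.38), or 0.11 without day 6. Over the 5 days, miR-98 was the single pair whose gap exceeded its standard error. For let-7c it was 0.37 (exact permutation p = 0.625), or -0.0358 without day 6, and for let-7f 0.15 (standard error 0.40). It was -0.21 for let-7i, -0.0949 for let-7a, 0.0796 for let-7g and 0.00 for let-7e. In the pairs of let-7a, let-7c, let-7d and let-7e the exact permutation p was at least 0.5625, before any adjustment. Without day 6 the gaps lay between -0.43 for let-7e and 0.42 for let-7f. On the log2 scale the exact permutation p of let-7a, let-7c, let-7d and let-7e was at least 0.5.

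The genes that sit beside let-7 genes elsewhere in the genome, miR-99a, miR-99b, miR-100, miR-125a and miR-125b, had another day profile. Of their 8 rows, 0 passed the study's thresholds, which 5 of the 592 miRNAs (0.845%) passed upwards. A higher mean in Trim-/- was found in 8 of them and in 303 of the 592 miRNAs. Their median log2 fold change was 1.27, against 0.03 over all miRNAs. In 3 of the 8 rows the Trimfl/fl value of day 5 is at the floor, so the size of their log2 fold change depends on the floor. In multiples of the mean, the median differences of the 8 rows on days 1, 3, 4, 5 and 6 were 0.95, 0.54, -0.34, 1.60 and 0.16. At the let-7e cluster on chromosome 17, miR-99b-5p had a day 6 difference of 0.25 times its mean, miR-99b-3p 0.24 times, miR-125a-5p 0.15 times and miR-125a-3p -0.40 times, beside 3.04 times for let-7e-3p.

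Outside the family, the day profile most like the median of the 3p arms was that of miR-24-2-5p, with a Pearson r of 0.98 over 5 days, followed by miR-1199-5p (0.93), miR-210-5p (0.93), miR-3473b (0.92) and miR-1981-5p (0.91). With 5 points, 1 of which is far from the others, these are descriptions of shared libraries. The day 6 difference of miR-24-2-5p was 0.85 times its mean, that of miR-1199-5p 2.28 times.

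Lists of miRNAs typical of other cells were set beside the day 6 result. The mES list summed to 56.5% of the Trim-/- library and 57.1% of the Trimfl/fl library of day 6, and 11 of its 23 rows were higher and 12 lower in Trim-/-. Of the neural names, 4 of 5 were listed with 8 rows, of which 7 were higher on day 6; over the 8 rows the median difference was 0.15 times the mean and the highest 1.01 times. The neural sum ran from 5927 to 9249 in Trim-/- and from 3393 to 6715 in Trimfl/fl; miR-137 was not among the rows. Of the fibroblast names, 5 of 6 were listed with 9 rows, of which 4 were higher on day 6. The fibroblast sum ran from 13780 to 35932 in Trim-/- and from 13414 to 35557 in Trimfl/fl, and on day 6 it was 31237 and 18081. Muscle and liver were each represented by 1 row, miR-1a-3p and miR-122-5p, at 0.65 times the mean on day 6, and of 3 blood rows 1 was higher and 2 lower. None of the rows of these lists had a day 6 difference over 2 times its mean. The part of other cells in the day 6 result was not tested. Fewer cells with processed let-7 and less of it per cell cannot be told apart in bulk RNA.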

How the data were processed

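Small RNA was sequenced from 11 mES cell libraries. Per the study's methods, libraries were made with a NEBNext small RNA kit (the labels name a TruSeq RNA kit) and run on a HiSeq. Per the submitters' notes, reads were demultiplexed with CASAVA 1.8, aligned with Bowtie2 2.2.1 to mm10 with miRBase annotation, and counted in Partek 6.6. The deposited values are a signal: the authors normalised read counts with DESeq2, removed batch effects, set values under 1 to 1 and dropped miRNAs whose larger group mean was under 10. Depth is unknown, so precision came from the 5 pairs alone.

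Values were taken as log2(value + 1) and fitted with limma 3.58.1 in R 4.3.3, with genotype and day as terms, on 10 libraries and all 592 miRNAs, with Benjamini-Hochberg adjustment. The labels give the day that pairs the libraries; same-day deviations from the group means correlated at -0.65 to -0.41, since same-day sums are constant. Single values were tested by exact two-sided permutation of the genotype within days, which has 32 patterns. The fit was tested on simulated data, of which no result is given here. Every 3p arm is named, with the 5p arms, the cluster partners and the 5 miRNAs of most similar profile. Members and lists were chosen with earlier results of these data known. Sequences came from RefSeq (GRCm38.p6) and host genes from GENCODE M21. Alternatives were a fit without the day block, all 11 libraries, each pair left out, each clone alone, 2 other scalings, pseudocounts of 0.1 and 10, a trended variance, a mean of at least 100 and untransformed values. Plots and tables used Python 3.11.15, pandas 2.3.3 and matplotlib 3.10.9.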

Additional observations from a re-analysis of the deposited data

Results flagged for a closer look

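By Dixon's criterion, the Trim-/- library of day 6 stood apart from the other 4 in the arms of let-7e, let-7f-1, let-7g and miR-98. It held 43.8 normalised read counts of let-7e-3p, 43.9 of let-7f-1-3p, 27.1 of let-7g-3p and 83.1 of miR-98-3p. The arms of let-7f-1, let-7g and, before the floor, miR-98 were listed only through the Trim-/- mean, which their day 6 value raises, so this is a description. Chance alone marks about 1 in 20 groups that were not chosen in this way. With constant same-day sums the Trimfl/fl library of that day mirrors the Trim-/- library. For let-7d-3p and let-7e-3p, every day of clone E3 had the opposite sign to every day of clone 1. The fitted difference of the log2 fold change, E3 minus 1, was 1.04 (standard error 0.55, unadjusted p = 0.113 from limma) for let-7d-3p, which was higher in Trim-/- in clone E3 alone. It was -2.27 (standard error 1.32, unadjusted p = 0.143 from limma) for let-7e-3p, which was higher in Trim-/- in clone 1 alone. Neither difference passed a threshold of 0.05. No share over the whole table is given for the day 6 mark or for the split by clone. Neither is therefore read as particular to these arms.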

How the results depend on the processing

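The median log2 fold change of the 3p arms was above 0 in each setting. That sign is a description, since the arms of let-7f-1, let-7g, let-7i and, before the floor, miR-98 were listed only through Trim-/-. All settings but those without day 6 and clone E3 alone keep the day 6 pair, whose Trimfl/fl value is floored in most arms. The median was 0.38 (without day 6) to 1.71 (without day 5) when 1 pair was left out. It was 0.59 in clone E3 and 1.798 in clone 1 alone, 0.757 to 1.58 across pseudocounts, and 1.40 when the day block was omitted. It was 1.81 over the 2 arms with a mean of at least 100, let-7a-1-3p and let-7c-2-3p, which share their sequence and possibly reads. In multiples of the mean, before the floor, the median of all the 3p arms was 0.82, or 0.25 without day 6 (a setting chosen after seeing the data). The number of arms past the study's thresholds was 0 in the paired fit and 0 to 1 when 1 pair was left out (1 without day 1, with 0.845% of all miRNAs called upwards; 0.676% to 3.89% without another). It was 2 without the replicate block (let-7f-1-3p and let-7f-2-3p), where 7.09% of all 592 miRNAs were called upwards. It was 3 with all 11 libraries and no block (7.6%), where miR-98-3p was added. The library added there, Trimfl/fl of day 2, is the mean of the other Trimfl/fl libraries before the floor. It thus raises the sample size without new information. Since let-7f-1-3p and, before the floor, miR-98-3p were listed only through Trim-/-, these counts are descriptions. The number was 1 in clone E3 alone (1.35%), with a pseudocount of 10 (1.35%) and on untransformed values (1.86%), in these 3 and without day 1 always let-7f-2-3p.

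The log2 fold change of let-7d-3p reversed to -0.16 in clone 1 alone and to -0.0066 with libraries divided by their totals, which moved the whole table to a median of -0.24 and left it 0.234 above that median; its mean same-day difference was then -1.64 normalised read counts. That of let-7e-3p reversed to -0.28 in clone E3 alone. The change of the log2 3p to 5p ratio, whose day 6 value is set by the floor where an arm is floored, reversed for let-7d (range -2.59 to 0.10 with 1 pair left out), let-7e (-0.66 to 0.17), miR-98 (-1.06 to 0.15), let-7c (-0.028 to 1.84) and let-7f (-2.05 to 0.69). It also reversed on untransformed values for let-7e (0.00023), let-7g (0.0796), miR-98 (0.48) and let-7f (0.15), and for let-7e with a pseudocount of 0.1 (0.0818). The cause was not tested. With values of 8 to 160 normalised read counts and unknown depth, counting error could not be given.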
